A study of Mus musculus with 10 samples.

Results

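Mitochondrial respiration in microglia, the resident macrophages of the brain, rests on nuclear genes for the respiratory chain and for the ribosome that translates the mitochondrial genome. The autosomal protein-coding genes of the GENCODE annotation whose symbols begin with Nduf, Uqcr, Cox4 to Cox8, Atp5, Mrpl or Mrps, or are Sdha to Sdhd, were taken as a set, which gave 168 of 20696 autosomal protein-coding genes. By symbol, they comprised 36 genes named as complex I subunits, 8 as complex I assembly factors, 4 complex II genes and 8 complex III genes. A further 17 were named for complex IV, 17 for ATP synthase, 49 for the large and 29 for the small mitoribosomal subunit. Some symbols are historical, such as Atp5s, and the class of a gene here follows its symbol only. Membership followed the symbols alone, but the gene families were chosen with earlier results of these data known.

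Cells were CD45+ CD11b+ CX3CR1+ microglia sorted from brains of wild-type C57/Bl6 mice, with no treatment or age in the labels. The promoter mark H3K4me3, trimethylation of histone H3 at lysine 4, was measured by ChIP-seq in 2 libraries with 2 input libraries. PLAC-seq, a proximity ligation assay that enriches DNA contacts of H3K4me3-marked promoters, was done in 2 libraries that were combined in 1 list of 26689 interactions between 5-kb bins. Of the 10 samples in the series, 4 are Hi-C libraries, of wild-type mice or mice without a Sall1 enhancer, which were not analysed here, and all values below are of wild-type cells.

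Complexes I to IV carry electrons from NADH and succinate to oxygen and pump protons across the inner mitochondrial membrane, apart from complex II, which pumps none. ATP synthase uses the proton gradient to make ATP. The mitoribosome translates the few subunits that mitochondrial DNA encodes, so all its proteins and most subunits of the chain come from nuclear genes.

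The peak lists held 27845 peaks in H3K4me3 replicate 1, at a depth of 12.8 M tags, and 26574 in replicate 2, at 13.4 M tags. All 8 microglial marker genes examined had a peak in both replicates, with 135 to 293 tags per 10 M in replicate 1 and 154 to 309.6 in replicate 2. Of 5 neuronal markers, 2 had a peak in both replicates, at no more than 10.1 and 14.9 tags per 10 M. Peaks were also present in both replicates at 2 of 4 astrocyte markers, 1 of 3 oligodendrocyte markers and 2 of 3 endothelial markers, the tallest of them at Mbp with 163 and 210.3 and at Slc1a3 with 204.9 and 213. The part that other cells could have in the values at the respiratory genes was not tested. The labels do not say that replicates came from separate animals, so the spread between them may be technical.

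Nearly every gene of the set carried H3K4me3. Genes with a peak no more than 1 kb from a transcription start site (TSS) in both replicates are called marked, and 162 of the 168 genes (96.4%) met this, beside 59.4% of all autosomal protein-coding genes. All genes of complexes II and III, ATP synthase, the assembly factors and both mitoribosomal subunits were marked. The exceptions were 5 genes of complex IV and Ndufa4l2, none of which had a listed peak within 1 kb in either replicate. Cytosolic ribosomal protein genes (74 of 74 marked) and proteasome genes (38 of 39 marked) stood at similar shares, and the differences from them were not tested.

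The height of the mark lay in a narrow band. The H3K4me3 value of a gene, the tags per 10 M in the tallest peak near its TSSs, had a median of 245 in replicate 1 and 254 in replicate 2 over the 162 marked genes, beside 216 and 222 over all 12291 marked genes. The mean of both replicates ran from 154 at the 5th percentile to 344 at the 95th percentile in the set, beside 16.3 to 363 over all marked genes. The coefficient of variation between genes was 24.9% in the set and 52.8% over all marked genes, but 25.3% for cytosolic ribosomal proteins and 25.5% for proteasome genes. The spread was thus about as small in those lists. When all marked genes were divided into quartiles by H3K4me3 value, 6, 42, 66 and 48 genes of the set fell into the quartiles from the lowest to the highest, so few of them were among the weakly marked genes. Medians of the replicate mean were 241 for cytosolic ribosomal proteins and 265 for proteasome genes, beside 248 for the set.

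Replicates were close for these genes. The log2 ratio of replicate 2 over replicate 1 had an SD of 0.22 between genes of the set, beside 0.31 over all marked genes, where counting error of the tags alone would give 0.12 and 0.20. The SD was 0.19 for cytosolic ribosomal proteins and 0.20 for proteasome genes, so replicates were about as close in those lists. In 161 of 162 genes of the set the replicates were within 1.5-fold of each other. The exception was Mrpl34, a large subunit protein gene, with 93.5 in replicate 1 and 154 in replicate 2. Uqcrfs1, which encodes the Rieske iron-sulfur protein of complex III, followed with 243 and 360.3.

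**Figure D1:**
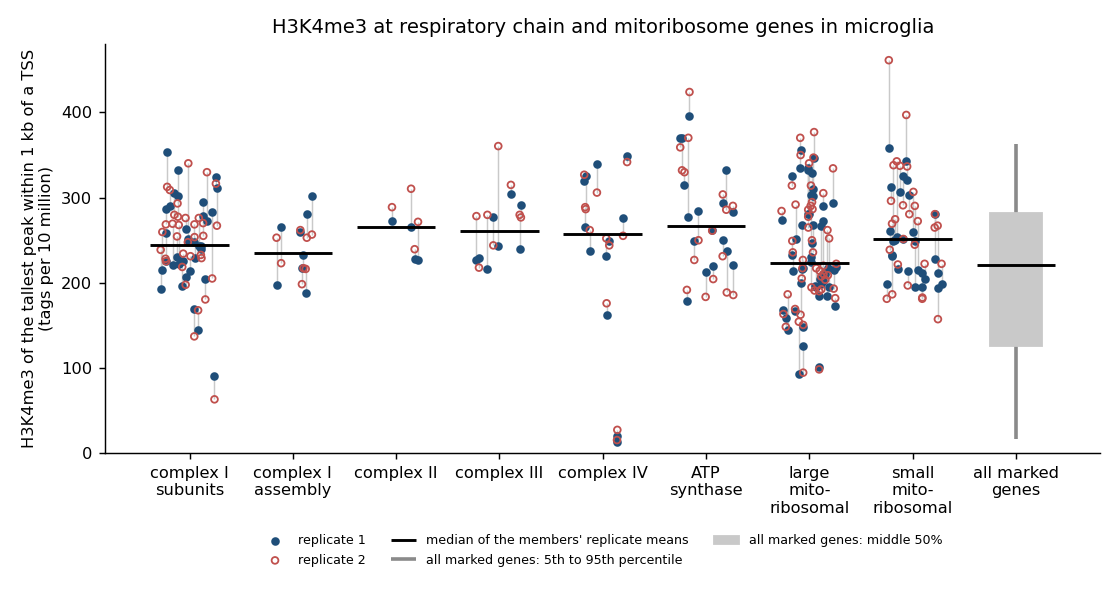
H3K4me3 of each marked gene of the set (tags per 10 M in the tallest peak within 1 kb of a TSS) by complex, with replicate 1 as filled points, replicate 2 as open points and a grey line joining them, black bars at the medians, and all 12291 marked genes at the right as a box (middle 50%) and line (5th to 95th percentile). Medians of the 8 classes lie between 224 and 267, and 2 complex IV genes lie far below the rest.

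The medians of the replicate mean by class were 245 for complex I subunits, 234 for assembly factors, 265 for complex II, 260.2 for complex III, 258 for complex IV, 267 for ATP synthase, 224 for the large and 251.5 for the small mitoribosomal subunit. The SD between genes of the set was 62.1, and differences between classes were not tested.

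The tallest mark of the set was at Atp5g3, with 396 in replicate 1 and 424 in replicate 2. It is 1 of 3 genes that encode the same mature subunit c, the protein of the rotating ring of ATP synthase. Atp5g2 had 294 and 304, and Atp5g1 had 219.7 and 204. The order of these 3 genes was the same in both replicates and their values did not overlap. Ribosomal protein genes came next. Mrps7, for a small subunit protein, had 358 and 461, and Mrps24 had 343 and 397. In the large subunit the highest was Mrpl3 with 347 and 377. Among respiratory genes, Atp5a1, for the alpha subunit of the ATP synthase head, had 370.1 and 332, and Ndufa6, an accessory subunit of complex I, had 353 and 312.5. The highest of complex II was Sdhb, the iron-sulfur subunit, with 265 and 310.3, and of complex III Uqcrh, the hinge protein, with 304 and 315. The tallest peak of Atp5a1 was also that of Haus1 in both replicates, and that of Uqcrh was also that of Lrrc41. Heights of these shared peaks cannot be assigned to either gene. The peaks of Uqcrh and Mrps7 were centered upstream of the TSS in both replicates, and the bin of Mrps7 also held Gga3.

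Core subunits of complex I, which hold its flavin and iron-sulfur centers, did not carry the mark at 1 level. Ndufv2 had 324 and 316, Ndufs1 305 and 279.7, and Ndufs3 311 and 267. Ndufv1 had 243 and 233, and Ndufs7 had 225 in both replicates. Ndufs8 had 145 and 168. In both replicates Ndufs8 stood below the other 5 named here without overlap. The tallest peak of Ndufs1 was also that of Eef1b2 in both replicates, so its height cannot be assigned to either gene.

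At the low end, after the isoforms described below, came Ndufa13, an accessory subunit of complex I, with 91.2 and 63.4. Peaks of 227 and 198 lay within 3 kb of its TSSs, outside the 1-kb window. Mrpl45 had 101 and 98.5 with no other peak within 3 kb, and Mrpl39 had 126 and 94.7. Mrpl16 had 148 and 151. In the set, tags behind a gene's value numbered 17 to 508 in replicate 1 and 21 to 619 in replicate 2, with medians of 314 and 343.5, so counting error was small except at the lowest genes.

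Complex IV was the class with a split, and the split followed tissue isoforms. Several of its subunits exist as a widespread form and as forms known from heart and muscle (Cox6a2, Cox7a1, Cox8b), lung (Cox4i2) or testis (Cox6b2, Cox7b2, Cox8c). Cox4i1 had 348 and 342, whereas Cox4i2 had no peak within 1 kb, its nearest peak lying 14712 and 14624 bp away. The tallest peak of Cox4i1 was also that of Emc8 in both replicates, so its height cannot be assigned to either gene. Cox6a1 had 319 and 327, whereas the nearest peak to Cox6a2 was 31016 and 31117 bp away. The COX8 family was alike. Cox8a had 265 and 289, whereas Cox8b and Cox8c had no peak within 3 kb. Cox7b2 likewise had none within 3 kb.

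The other isoforms carried a low but listed peak. Cox7a2 had 276 and 255 and Cox7a1 had 20.3 and 27.6, a ratio of 13.6 in replicate 1 and 9.24 in replicate 2. Cox6b1 had 163 and 176 and Cox6b2 had 13.2 and 15.7, a ratio of 12.3 and 11.2. Cox7a2l, a relative of the COX7A subunits that acts in supercomplex assembly, had 248.5 and 244. Ndufa4, named as a complex I subunit but known as part of complex IV, had 252 and 248. Its paralog Ndufa4l2, known as a hypoxia-induced gene, had no peak within 1 kb and 39.7 and 61.2 as the tallest peak within 3 kb. In each of these families the widespread form was higher in both replicates, with no overlap. These pairs were picked with that pattern known, so it stands as a description.

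**Figure D2:**
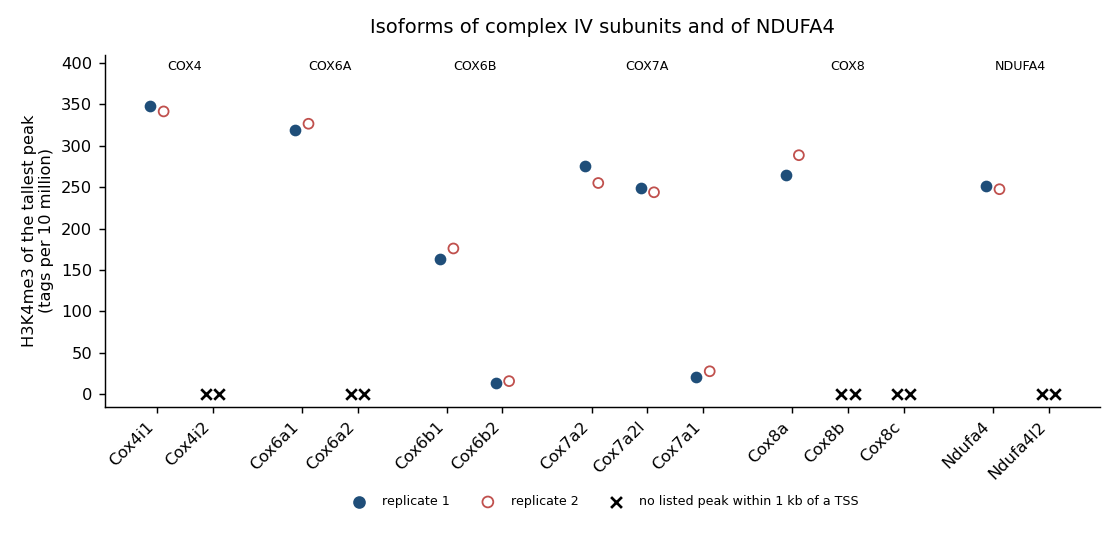
H3K4me3 (tags per 10 M, tallest peak within 1 kb of a TSS) of isoforms in 5 families of complex IV subunits and of NDUFA4, with replicate 1 as filled and replicate 2 as open points and crosses where no peak was listed. Widespread forms lie between 163 and 348, and the other forms, apart from Cox7a2l, lie at 27.6 or below or have no listed peak.

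The promoters of these isoforms also differed in sequence. They are shown for the 3 families in which both forms matched the RefSeq promoter table (build GRCm38.p6), each from 250 bases before to 50 after the start, with CG dinucleotides, the sites of CpG methylation, in capitals. Cox8a (chr19:7217567-7217866, minus strand) held 19 CG dinucleotides and Cox8b (chr7:140900397-140900696, minus strand) held 2.
Cox8a: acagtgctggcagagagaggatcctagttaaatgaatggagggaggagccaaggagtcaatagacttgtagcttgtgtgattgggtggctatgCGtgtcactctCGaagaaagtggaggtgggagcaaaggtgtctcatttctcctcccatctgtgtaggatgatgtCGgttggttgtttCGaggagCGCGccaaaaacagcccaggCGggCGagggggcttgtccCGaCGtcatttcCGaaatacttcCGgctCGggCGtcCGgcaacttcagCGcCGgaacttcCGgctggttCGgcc
Cox8b: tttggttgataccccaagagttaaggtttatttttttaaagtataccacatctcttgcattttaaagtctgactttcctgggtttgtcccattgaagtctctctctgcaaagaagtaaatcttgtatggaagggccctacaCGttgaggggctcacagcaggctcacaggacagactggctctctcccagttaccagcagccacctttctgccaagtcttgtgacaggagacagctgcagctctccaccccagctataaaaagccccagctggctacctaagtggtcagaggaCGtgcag
Cox7a2 (chr9:79759804-79760103, minus strand) held 20 and Cox7a1 (chr7:30183921-30184220, plus strand) held 7.
Cox7a2: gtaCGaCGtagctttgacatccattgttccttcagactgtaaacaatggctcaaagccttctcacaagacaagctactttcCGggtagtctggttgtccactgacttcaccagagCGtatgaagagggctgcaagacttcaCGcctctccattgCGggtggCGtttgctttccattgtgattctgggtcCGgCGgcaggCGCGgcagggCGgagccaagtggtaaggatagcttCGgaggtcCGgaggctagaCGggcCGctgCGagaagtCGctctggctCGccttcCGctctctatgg
Cox7a1: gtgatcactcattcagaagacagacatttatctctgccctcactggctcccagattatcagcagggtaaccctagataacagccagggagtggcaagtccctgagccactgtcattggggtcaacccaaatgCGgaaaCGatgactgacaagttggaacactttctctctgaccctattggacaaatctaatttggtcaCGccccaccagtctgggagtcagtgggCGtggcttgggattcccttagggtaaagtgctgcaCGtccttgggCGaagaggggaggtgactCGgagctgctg
Cox6b1 (chr7:30626065-30626364, minus strand) held 17 and Cox6b2 (chr7:4753045-4753344, minus strand) held 10.
Cox6b1: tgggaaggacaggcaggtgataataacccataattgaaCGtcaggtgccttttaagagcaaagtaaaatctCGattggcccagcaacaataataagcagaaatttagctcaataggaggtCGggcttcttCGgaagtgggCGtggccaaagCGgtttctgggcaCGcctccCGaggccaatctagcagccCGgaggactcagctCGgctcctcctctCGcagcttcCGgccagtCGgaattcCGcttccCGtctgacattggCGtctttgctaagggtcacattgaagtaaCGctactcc
Cox6b2: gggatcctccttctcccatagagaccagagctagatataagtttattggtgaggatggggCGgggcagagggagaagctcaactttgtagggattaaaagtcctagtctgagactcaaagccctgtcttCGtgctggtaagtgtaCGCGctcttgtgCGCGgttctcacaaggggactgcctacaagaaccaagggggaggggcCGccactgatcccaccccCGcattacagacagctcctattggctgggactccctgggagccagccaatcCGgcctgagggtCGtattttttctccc
The median over genes was 20 in the 142 genes of the set with a promoter in the table, 23 in marked genes and 8 in all 27025 genes of the table, taking the highest count where a gene had several promoters. Low counts were not limited to weakly marked genes of the set. Mrpl44 held 7, with a mean H3K4me3 of 224.6, and Ndufc2 held 8, with 277.6. Whether the count and the mark go together was not tested.

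Some motif letters known from respiratory promoters were more frequent in the set than in all marked genes. Their shares in cytosolic ribosomal protein and proteasome genes were not counted. NRF-1 and the ETS factor GABPA, also called NRF-2, are transcription factors known for binding promoters of respiratory genes, and YY1 is known for binding some of them. The letters GCGCANGCG of NRF-1, read on both strands, were in the promoters of 38 of 142 genes (26.8%), beside 15.5% of 9793 marked genes and 7.03% of all genes in the table. CCGGAAG, for ETS factors, was in 44 (31.0%), beside 20.3% and 9.93%. ATGGCGGC, for YY1, was in 19 (13.4%), beside 5.71% and 2.61%. At least 1 of these 3 was in 81 promoters (57.0%), beside 35.7% of marked genes and 17.1% of the table. GGGCGG, for SP factors, ran the other way against marked genes, in 68 promoters (47.9%), beside 71.2% of marked genes and 38.2% of the table. TATAAA, the TATA box, was in 12 (8.45%), beside 8.35% and 15.7%, and TGACGTCA, for CREB and ATF factors, was in 6 (4.23%), beside 3.79% and 2.03%. Matches of CCGGAAG and GGGCGG overlapped in 3 promoters of the set, and no other pair of motifs overlapped.

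Classes differed in which letters they held. The NRF-1 letters were in 7 of 15 ATP synthase promoters and 1 of 12 complex IV promoters. The ETS letters were in 26 of 69 mitoribosomal promoters and 4 of 31 complex I subunit promoters. The YY1 letters were in 12 mitoribosomal, 6 complex I subunit and 1 assembly factor promoters and in none of complexes II, III and IV or ATP synthase. With so few promoters a class, these counts are descriptions. Median H3K4me3 was 255 in the 38 marked genes that held the NRF-1 letters and 244 in the 102 that did not, 244 and 249.5 with and without the ETS letters, and 265 and 238 with and without the SP letters. These differences were not tested. Letters in a window do not show that a factor binds there.

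**Figure D3:**
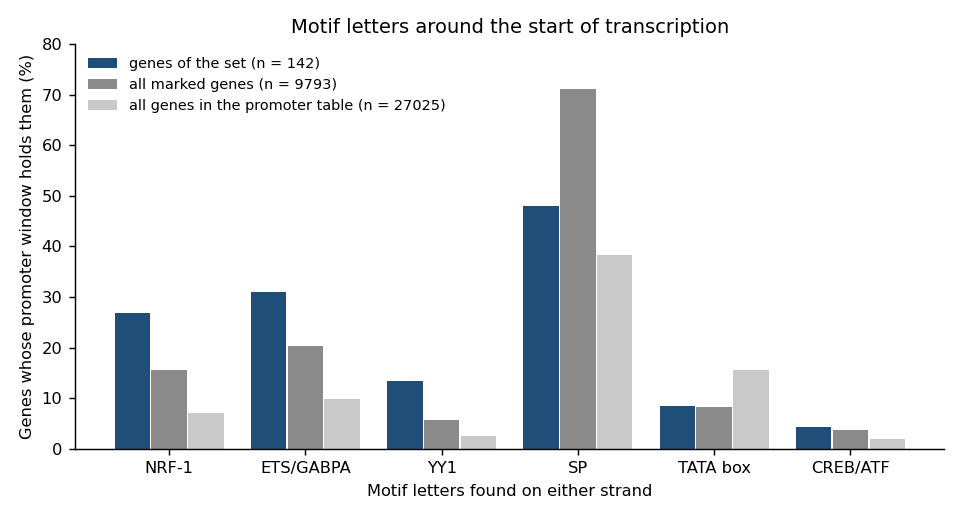
Share of genes (%) whose 300-base promoter window holds the letters of each of 6 motifs on either strand, for 142 genes of the set, 9793 marked genes and 27025 genes of the promoter table. The NRF-1, ETS and YY1 bars are highest in the set, and the SP bar is highest in marked genes.

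Promoters that carry these letters are shown with the matches in capitals. Sdhd, a membrane anchor of complex II (chr9:50603800-50604099, minus strand), held the NRF-1 letters and, in the reverse reading, the ETS letters. Atp5g3, the tallest gene of the set (chr2:73911277-73911576, minus strand), held the NRF-1 letters in the reverse reading. The promoter of Mrps11 (chr7:78782881-78783180, plus strand), shared with Mrpl46, held the YY1 letters in the reverse reading. A promoter of Atp5j (chr16:84834927-84835226, minus strand), which faces that of Gabpa, held the ETS letters.
Sdhd: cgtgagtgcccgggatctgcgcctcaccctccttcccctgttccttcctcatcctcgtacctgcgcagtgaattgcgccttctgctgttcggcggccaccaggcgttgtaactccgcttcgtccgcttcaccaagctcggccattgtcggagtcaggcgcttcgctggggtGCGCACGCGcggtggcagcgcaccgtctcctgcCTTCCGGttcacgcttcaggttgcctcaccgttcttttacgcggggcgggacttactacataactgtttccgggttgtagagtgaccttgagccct
Atp5g3: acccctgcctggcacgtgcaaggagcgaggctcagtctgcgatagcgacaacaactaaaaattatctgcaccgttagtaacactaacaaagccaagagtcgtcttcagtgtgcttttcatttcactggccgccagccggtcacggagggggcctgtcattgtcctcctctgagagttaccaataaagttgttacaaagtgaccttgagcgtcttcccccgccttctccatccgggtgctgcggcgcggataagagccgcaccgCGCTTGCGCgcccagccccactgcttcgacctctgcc
Mrps11: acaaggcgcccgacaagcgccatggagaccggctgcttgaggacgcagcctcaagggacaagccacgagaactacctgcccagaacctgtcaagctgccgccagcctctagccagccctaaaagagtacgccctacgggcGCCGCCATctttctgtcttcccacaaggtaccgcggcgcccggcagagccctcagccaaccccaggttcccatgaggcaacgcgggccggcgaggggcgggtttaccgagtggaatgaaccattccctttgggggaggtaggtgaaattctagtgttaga
Atp5j: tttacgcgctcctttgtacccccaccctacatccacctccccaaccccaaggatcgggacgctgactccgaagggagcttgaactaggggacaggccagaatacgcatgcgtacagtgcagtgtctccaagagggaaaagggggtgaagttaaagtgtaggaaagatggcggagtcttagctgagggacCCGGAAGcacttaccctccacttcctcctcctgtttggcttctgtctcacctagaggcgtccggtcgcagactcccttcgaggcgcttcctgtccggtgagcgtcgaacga
Sdhd had values of 227 and 272, and Mrps11 and Mrpl46 280.5 and 265, beside medians of the set of 245 and 254. The value of Atp5j, 370.1 and 359, came from a peak outside the window shown, nearer to another of its TSSs. That peak lay at chr16:84835372-84835556 in replicate 1 and chr16:84835396-84835584 in replicate 2.

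Many of these genes faced another gene across a shared promoter. In 50 of the 168 genes (29.8%) a TSS of another gene lay upstream on the other strand within 1 kb, beside 9.22% of all autosomal protein-coding genes and 14.8% of all marked genes. The share was 16.2% for cytosolic ribosomal proteins and 17.9% for proteasome genes. All 50 were marked. In 47 of them the tallest peak was the same peak as the partner's in both replicates, so its height cannot be assigned to either gene. The TSSs were a median of 82 bp apart and within 200 bp in 45 genes. Head-to-head genes had a median H3K4me3 of 260.2 and the other 112 marked genes of the set 244, beside 249.7 and 212 over all marked genes. The set thus stood above all marked genes among genes without a head-to-head partner as well. These 112 are not all free of a shared promoter, since 17 of them had another gene's TSS in their bins. Mrpl47 and Ndufb5, which overlap at their starts, had the same tallest peak.

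The partners included other genes of mitochondria and of protein synthesis. In 2 of the head-to-head pairs both genes were in the set. Mrpl46 and Mrps11 started 30 bp apart and joined a large and a small subunit protein at 1 peak of 280.5 and 265. Ndufs6, an accessory complex I subunit, and Mrpl36 started 51 bp apart, with 249 and 340.1 at Ndufs6 and 280.5 and 340.1 at Mrpl36. Atp5j, for coupling factor 6 in the stalk of ATP synthase, faced Gabpa at 686 bp. Mrpl43 faced Twnk, the mitochondrial DNA helicase, at 116 bp. Mrps12 faced Sars2, the mitochondrial seryl-tRNA synthetase, at 182 bp, and Sdhd faced Timm8b, a chaperone of mitochondrial import, at 98 bp. Ndufs1 faced the elongation factor gene Eef1b2 at 3 bp, and Ndufa7 faced the cytosolic ribosomal protein gene Rps28 at 10 bp.

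The mark lay just inside the genes. The center of the tallest peak was a median of 152 bp downstream of the nearest TSS in the set and 142 bp over all marked genes, with 159.5 bp in replicate 1 and 155.5 bp in replicate 2 for the set. It was downstream in both replicates in 129 of 162 genes (79.6%), beside 75.2% of all marked genes. Of the 112 genes with no head-to-head partner it was downstream in 104 (92.9%), beside 80.6% of all such marked genes, and of the 50 with a partner in 25. Only 7 of the 168 genes had a peak over a TSS itself in both replicates, beside 7.97% of all genes. A lone peak within 1 kb was listed in both replicates in 104 of 162 genes (64.2%), beside 57.7% of all marked genes. Listed peaks have nearly the same width, so this count does not measure the extent of the mark. The genes are short, with a median length of 7807 bp, beside 24831 bp over all marked genes.

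As a set, these genes had about as many contacts as other marked genes. Interactions were counted for a gene when a bin at either end held 1 of its TSSs, so that neighbors in a bin have them in common. Of the 162 marked genes 63 (38.9%) had at least 1, beside 37.8% of all marked genes, so the set was near the background. The 63 genes had 204 interactions, a mean of 1.26 per marked gene, beside 1.35 over all marked genes. By class, the share was 14 of 35 for complex I subunits, 4 of 8 for assembly factors, 1 of 4 for complex II, 1 of 8 for complex III, 6 of 12 for complex IV, 8 of 17 for ATP synthase, 20 of 49 for the large and 9 of 29 for the small mitoribosomal subunit. The list gives no replicates and its depth is unknown, so these counts carry no error, and a pair of bins missing from it may still be in contact.

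The share of genes with contacts did not climb with the height of the mark in the set. From the lowest to the highest H3K4me3 quartile, 5 of 6, 16 of 42, 27 of 66 and 15 of 48 genes of the set had an interaction, beside 28.7%, 38.0%, 40.7% and 43.7% of all marked genes. The mean number of interactions was 2.33, 1.71, 1.18 and 0.83 in the set, beside 0.92, 1.33, 1.48 and 1.69 over all marked genes. The lowest quartile held only 6 genes of the set. In the next, Mrpl13, Mrps23, Atp5d and Mrpl4 held 46 of the 72 interactions, and without Mrpl13 and Mrps23, left out after the data were seen, its mean was 1.1 rather than 1.71, so the order of the means rests on a few genes. Whether the trends differ was not tested.

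**Figure D4:**
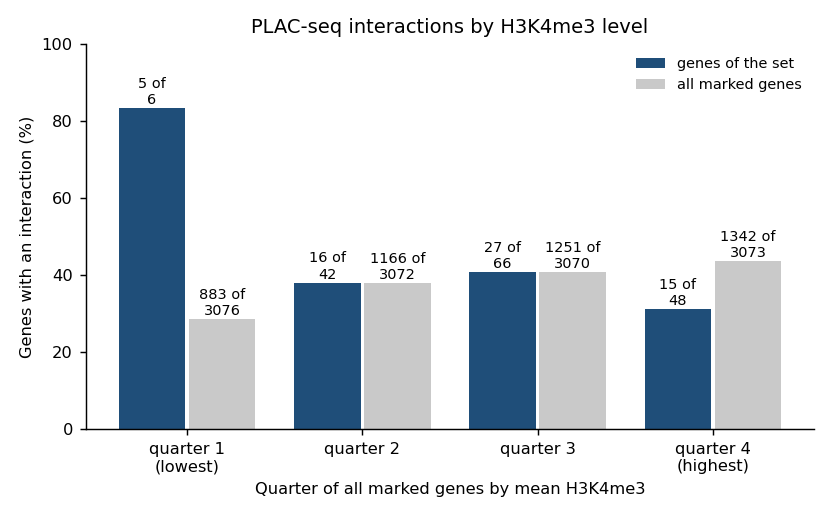
Share of genes with at least 1 PLAC-seq interaction (%) in each quartile of all marked genes by H3K4me3, for the set (dark bars) and all marked genes (light bars), with the counts above the bars. In the highest quartile 15 of 48 genes of the set had an interaction, beside 43.7% of all marked genes.

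A few genes held many of the contacts, but genes with many contacts were no more frequent than elsewhere. Of the marked genes of the set, 6 (3.70%) had 6 or more interactions, beside 6.85% of all marked genes. The 5 genes with the most held 58 of the 204 interactions (28.4%) and the first 10 held 84 (41.2%). Mrpl13 had 15, in a bin shared with Mtbp, and they fell into bins 250 to 275 kb and 430 to 490 kb away, which hold TSSs of Col14a1, Deptor and Dscc1. Mrps23 had 13, reaching bins of Srsf1, Vezf1 and Dynll2 at 130 to 245 kb. Atp5o, for the OSCP protein that joins the stalk of ATP synthase to its head, had 12, of which 7 lay 350 to 375 kb upstream near Kcne2 and Smim11 and 5 lay 195 to 240 kb downstream, where 1 bin holds Cryzl1 and Itsn1. Atp5d and Mrpl4 had 9 each. Neighboring bins were thus counted as separate interactions, and with 1 per cluster the set had 51.

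**Figure D5:**
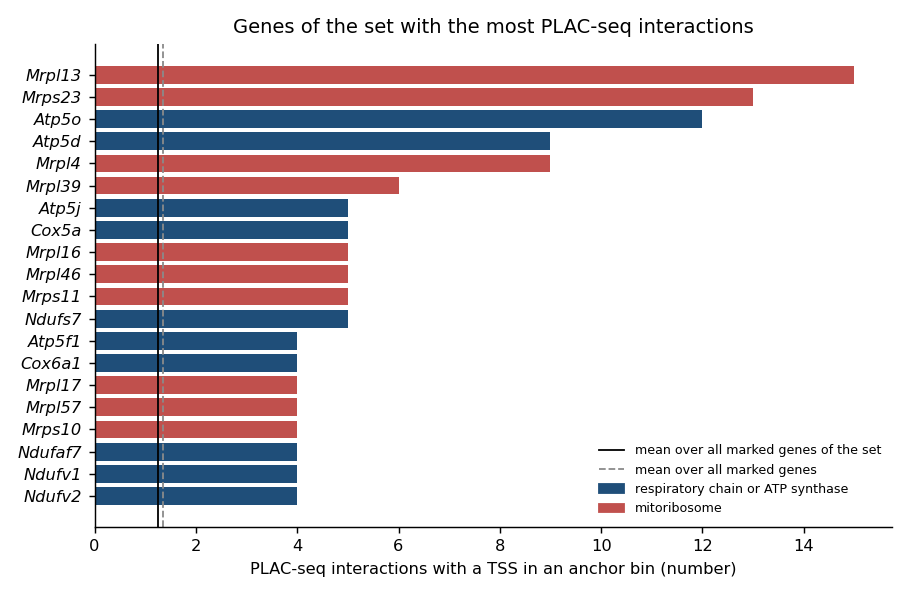
Number of PLAC-seq interactions for the 20 marked genes of the set with the most, respiratory chain and ATP synthase genes in blue and mitoribosomal genes in red, with lines at the mean per marked gene of the set (1.26) and of all marked genes (1.35). Mrpl13, Mrps23 and Atp5o have 15, 13 and 12, and from Atp5j on the genes have 5 or fewer.

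The strongest interaction of the set was at Atp5o, with 24 read pairs against 2.18 expected, a ratio of 11.0, between its bin at chr16:91930001-91935000 and one 355 kb upstream with no TSS and no H3K4me3 peak (false discovery rate 1.13e-14). Mrpl13 had a ratio of 9.93 at 260 kb, with 28 read pairs against 2.82 expected. Cox5a, for a subunit of complex IV on its matrix side, had 8.97 at 315 kb, and Ndufaf6 had 8.08 at 90 kb. The highest ratios of complexes II and III were 3.02 for Sdhc and 5.37 for Uqcr10. None of these bins at the far end held a TSS or a peak, but others of similar ratio did. Mrpl13 had a ratio of 9.11 with the bin of Col14a1, and Atp5f1, for the stalk subunit b of ATP synthase, had 8.87 with the bin of Ddx20 at 275 kb. Over all 204 interactions the median ratio was 3.87 and the median distance 135 kb, beside 3.86 and 125 kb over all marked genes.

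The far end of an interaction held H3K4me3 in both replicates in 62 of 204 (30.4%), beside 21.5% over all marked genes, and a TSS in 56 (27.5%), beside 16.2%. The near end was shared with another gene in 76 (37.3%), beside 17.4%. Sharing a bin was itself more frequent in the set, at 66 of its 162 marked genes, beside 2500 of all 12291 marked genes. An interaction of 2 genes counts for each of them, so 196 of the 204 were distinct, as were 14241 of 16647 over all marked genes. Differences between these shares were not tested. Among genes alone in their bins, 38 of 96 in the set (39.6%) and 37.7% of all marked genes had an interaction. Only 1 interaction joined genes of the set, between the bin of Mrpl39 and that of Atp5j and Gabpa at 95 kb, with 35 read pairs against 9.64 expected (ratio 3.63, false discovery rate 3.89e-08). All 5 interactions of Atp5j ran toward Mrpl39 and were shared with Gabpa, so the contact cannot be assigned to either.

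Of the 6 unmarked genes 4 were in a bin with an interaction, beside 5.63% of all genes without H3K4me3 in both replicates. Ndufa4l2 had 2, with bins 25 and 30 kb away. Cox4i2 had 1, with the bin of the survival gene Bcl2l1 at 75 kb (26 read pairs against 8.16 expected), Cox6a2 had 1, with that of the inflammasome adaptor gene Pycard at 215 kb (10 against 2.36), and Cox8b had 1, with that of B4galnt4 at 160 kb (13 against 3.54). The far bins of the last 3 carried H3K4me3 in both replicates, whereas those of Ndufa4l2 did not. Counts of so few genes are given as a description.

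Genes that act with the set but carry other symbols mostly carried the mark as well. Of 33 other genes of the respiratory chain, such as cytochrome c1 (Cyc1, 326 and 352) and assembly factors, 32 were marked, the exception being Sdhaf1. All 24 mitochondrial translation genes with other symbols were marked, among them Tufm, the mitochondrial elongation factor, with 231 and 263. Of 22 regulators, 21 were marked. The share was 59.4% over all autosomal protein-coding genes, but 74 of 74 cytosolic ribosomal protein genes and 38 of 39 proteasome genes were marked. Nrf1 had 340.5 and 374, Gabpa 370.1 and 359, and Tfam, which packages mitochondrial DNA, 279.7 and 278. The tallest peak of Gabpa was also that of Atp5j in both replicates, so its height cannot be assigned to either gene. Esrra, for an estrogen-related receptor, was lower with 117 and 86.5, and the lowest was Mterf1a, a relative of mitochondrial transcription termination factors, with 43.6 and 44. Ppargc1a, for the coactivator PGC-1 alpha, had no peak within 1 kb in either replicate, whereas its relatives Ppargc1b and Pprc1 had 157 and 193, and 298 and 304. The medians of these lists were 233 and 253 for respiratory genes, 231 and 255 for translation and 246 and 224.5 for regulators, beside 216 and 222 for all marked genes. Ndufb11, Ndufa1 and Cox7b lie on the X chromosome, outside the set, and had 112 and 166, 104 and 99.2, and 99.7 and 116.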

How the data were processed

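H3K4me3 ChIP-seq, input and PLAC-seq libraries of wild-type microglia were grouped as labelled. The authors deposited 1 H3K4me3 peak list per library, in the format of HOMER's peak finder; Bowtie2, HOMER and mm10 are named in the submitters' processing notes. Deposited values are the signal (tags per 10 M), the tag count, the input signal scaled by the authors and their fold over input, a ratio. All peaks of a library have nearly the same width, so the signal is height. The authors called PLAC-seq interactions on both libraries together, with MAPS in 5-kb bins and H3K4me3 peaks as a template, and deposited read pair counts, expected counts and a false discovery rate, an adjusted p-value. The study's methods name the ENCODE pipeline for the template peaks, which may differ from the deposited lists.

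TSSs came from the GENCODE M21 basic annotation (GRCm38), with gene IDs of 1 symbol joined. Peaks within 1 kb of a TSS were assigned, and the tallest gave the value. Promoters were those of RefSeq (GRCm38.p6): 142 of 168 genes matched, 140 by symbol and 2 by synonym. The 26 others, among them Atp5a1, Cox4i1, Cox4i2, Cox6a2, Cox6c, Cox8c, Mrpl13, Mrpl4, Ndufa4l2, Ndufaf6, Ndufs1 and Sdhc, entered no promoter count. The genes and lists were chosen with earlier results of these data known, so no test was made and lists are described beside all genes. Named genes were those without a mark, the 10 highest and lowest, the 10 with most interactions, the extremes of each class, the largest replicate differences, isoforms, complex I core subunits and strongest interactions, apart from values not reported here. Other windows, thresholds and single replicates were tried. Scripts (Python 3.11.15, pandas 2.3.3, NumPy 2.4.6) recovered known answers on simulated data.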

Additional observations from a re-analysis of the deposited data

How the results depend on the processing

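The number of marked genes, the head-to-head count and 5 of 6 motif counts moved by no more than 1.5-fold under every alternative run for them, with 1 exception: only 7 of the 168 genes had a peak over a TSS itself, beside 7.97% of all genes, with a median value of 212. Summing all peaks within 1 kb gave a median of 271.5, beside 247 over all marked genes. The median distance of the tallest peak was 155.5 to 159.5 bp with either replicate left out. Within 100 bases of the start, TATAAA was in 4 promoters of the set (2.82%), beside 3.73% of marked genes and 8.08% of the promoter table.

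Counts of interactions depended on the threshold, in the set and in all marked genes alike. With a false discovery rate no higher than 0.0001, 37 genes had 85 interactions, with at least 20 read pairs 36 genes had 75, with 1 interaction per cluster 40 genes had 51, and among genes alone in their bins 38 genes had 128. With neighboring bins included the total was 334. The share of genes with an interaction stayed within 4 percentage points of that of all marked genes in each. No paired analysis was possible because no groups were compared and the interaction list combines both libraries.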
